A study of Mus musculus with 27 samples.

Results

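The whole brain of DBA/2J mice, an inbred laboratory strain, was described here from 4 arrays, 1 per animal, of the 27 in the series. They are the arrays titled with the strain, whole brain and a number but no letter, and each number was taken as 1 animal. The mice were 10 weeks old and naive, the labels do not give their sex, and 5 ug of total RNA per sample went into the labelled target. The 5 unlettered arrays of C57 males (strain written C57BL/2 in the labels), of the same age and also naive, are given beside them for the size of the variation. The 18 lettered arrays, on another platform, were not used here. Nothing was done to these animals, so what is described is which genes gave strong signal in brain and which differed from 1 naive animal of the same age to the next.

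A whole brain extract averages many regions and cell types. Neurons of different regions, astrocytes, oligodendrocytes (which wrap axons in myelin), microglia and blood vessels each contribute their own transcripts. A gene made in 1 small region, such as the olfactory bulb at the front of the brain or the pineal gland at its surface, is diluted in the extract, and its level then depends on how much of that region was collected. Immediate early genes are another source of variation, since neurons switch them on within minutes of stimulation. In such a bulk extract, fewer cells of a type and less RNA per cell cannot be told apart.

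The arrays report an intensity for each probe set, a group of short probes against 1 transcript. Median intensity was 168, 176, 180 and 188 in DBA animals 1 to 4, and any pair of DBA arrays correlated at 0.952 to 0.973 across bright probe sets, which are not independent of each other. Neuron markers were bright in all 4 animals: all 15 of the neuron genes on the array passed the limit of a geometric mean intensity of 35 that defines a bright probe set below. Astrocyte markers were bright in 13 of 13 genes, microglia markers in 13 of 14 and myelin genes in 12 of 14. Of all genes named on the array 83.5% were bright, so these counts show that the markers were measured and do not set the lists apart from other genes.

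Animal 3 stood apart in the array controls. The control probe set for the 3' part of 18S ribosomal RNA read 459, 231, 7466 and 660 in animals 1 to 4, so animal 3 was 11.3-fold above the next animal. The C57 arrays read 1210, 190, 298, 135 and 124 there. The 6 control sets for the opposite strand of Actb and Gapdh were also highest in animal 3, by 2.49-fold to 8.38-fold over the next animal. The 9 control sets for bacterial and phage transcripts added before hybridization were highest in animal 3 in 9 of 9 cases and lowest in animal 4 in 8 of 9. The log2 ratio of 3' to 5' signal of Actb was 0.52, 0.55, 0.53 and 0.66 in animals 1 to 4, with animal 3 among the others. For Gapdh it was -0.34, -0.32, -0.44 and -0.33, with animal 3 below the other 3 and below the C57 arrays. The count of probe sets spanning 2-fold is therefore given with and without animal 3. Counts of genes highest or lowest in animal 3 are given with it only. The part these control signals play in any gene's value was not tested.

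Among 9386 bright probe sets (6891 named genes), the median SD between the 4 DBA animals was 0.23 on the log2 scale. In 1506 of them, or 16.0%, the highest animal was at least 2-fold above the lowest. Without animal 3 the number was 853 of 9357 (9.12%), and without animal 4 it was 992 of 9393 (10.6%). Most of this spread lay in dim probe sets. Between intensities of 35 and 100 the median SD was 0.43 and 48.1% of 1912 probe sets spanned 2-fold. Between 300 and 1000 the median SD was 0.20 and 5.08% of 2914 did so, and over 3000 it was 0.15 and 0.533% of 563 did so. Counting every probe set with a geometric mean of at least 300, 184 of 4900 spanned 2-fold, or 3.76%. Probe sets whose names end in r_at, a suffix for sets designed with some probe selection rules dropped, spanned 2-fold in 43.4% of 477 cases, against 13.6% of 7540 sets with the plain suffix.

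**Figure D1:**
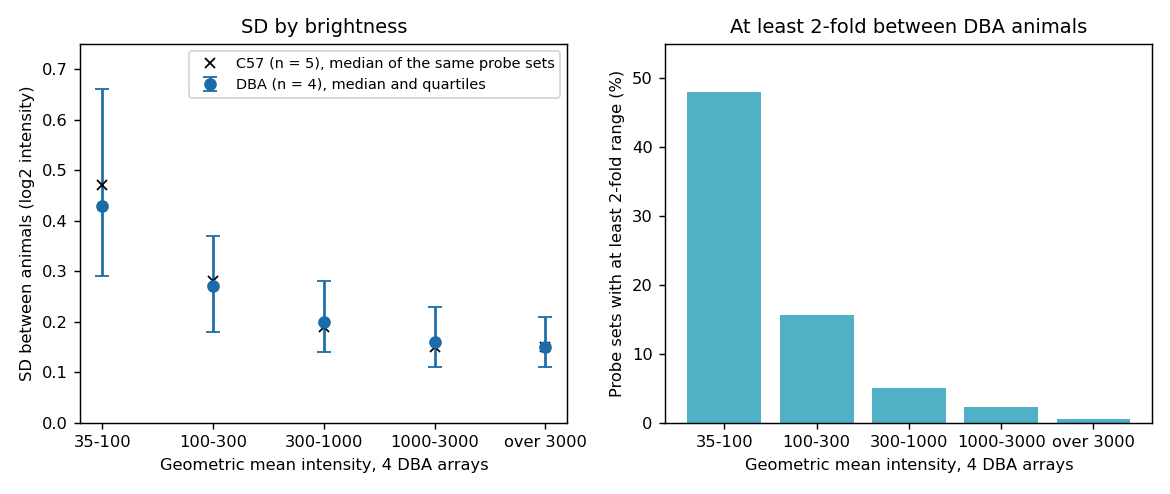
Left, the SD of log2 intensity between the 4 DBA animals for probe sets in 5 classes of geometric mean intensity (points are medians, bars reach the quartiles), with crosses for the median SD of the same sets in the 5 C57 animals. Right, the share of each class whose highest DBA animal was at least 2-fold above the lowest; it is 48.1% in the dimmest class and 0.533% in the brightest.

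The DBA animals were not detectably more or less alike than the C57 animals. The distance of each animal from its strain mean, taken as the median absolute log2 difference over 9340 bright probe sets and corrected for group size, was 0.169, 0.145, 0.197 and 0.204 in DBA animals 1 to 4. It was 0.210, 0.139, 0.192, 0.165 and 0.167 in C57 animals 1 to 5, so the groups overlapped. The means were 0.179 ± 0.027 (SD, n = 4) and 0.175 ± 0.027 (SD, n = 5), a difference of 0.004 (exact 2-sided permutation test over 126 regroupings of the animals, p = 0.794; the smallest p this design allows is 0.00794). The p-value measures the spread between these samples only. In C57, 182 of 4955 probe sets at 300 or more spanned 2-fold, or 3.67%. Of the 4748 probe sets at 300 or more in both strains, 171 spanned 2-fold in DBA and 165 in C57, and 33 did so in both, which is 19.3% of the DBA sets and 20% of the C57 sets.

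The brightest named probe sets of DBA brain were led by Gnas, tubulin and elongation factor genes. Brightness depends on the probes as well as on the RNA, so the order of genes is an order of signal and not of transcript number. Gnas, which encodes the stimulatory G protein alpha subunit, gave 18571, 24617, 30459 and 16987 in animals 1 to 4 and ranked 3 of all probe sets. Snap25, a protein of the synaptic vesicle fusion machinery, gave 17158, 17917, 21136 and 15350. Apoe, the lipid carrier made by astrocytes, gave 17263, 19128, 23238 and 15184. Each of these was highest in animal 3 and lowest in animal 4.

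The other named genes of this group were App (the amyloid precursor protein), Prnp (the prion protein), Dnm1 (dynamin of synaptic vesicle recycling), Ckb (brain creatine kinase), Tuba1a and Tuba1c (tubulins), Eef1a1 and Eef1a2 (translation elongation factors), Rpl41 and Rps24 (ribosomal proteins), Cst3 (cystatin C) and Zwint. SDs in the group of 15 ran from 0.09 (Cst3) to 0.39 (Gnas). Animal 3 was the highest in 12 of the 15, where it was highest in 27.6% of all bright probe sets. Animal 4 was the lowest in 13, where it was lowest in 25.4% of all bright probe sets. The same lean was present over all 563 probe sets brighter than 3000: the median deviation from the 4-animal mean was -0.01, 0.06, 0.07 and -0.10 (log2) in animals 1 to 4. Between 100 and 300 it ran the other way for animal 4, at 0.09. A brightness-dependent offset of this size lies beside every small difference between animals given below.

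Some genes hardly varied at all. The 10 named genes with the smallest SD at an intensity of 300 or more had SDs of 0.01 to 0.02 and ranges of 1.02-fold to 1.03-fold. Atp6v1b2, a subunit of the proton pump that acidifies synaptic vesicles and lysosomes, gave 10337, 10556, 10498 and 10441. Lamtor5, a member of the lysosomal Ragulator complex, gave 805, 822, 810 and 820. Timm8b, a chaperone of mitochondrial import, gave 1559, 1558, 1570 and 1539. The others were Anp32a, Arpc2 (actin nucleation), Dazap2, Dcaf8, Ehmt2 (a histone methyltransferase), Map4 (a microtubule-associated protein) and Pfkp (phosphofructokinase). They were picked out of 4900 probe sets for a small SD, so the size of the SD is a description.

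At 300 or more, the 15 named genes with the largest SD were mostly high in animal 3. Animal 3 was the highest in 12 of them, beside 27.6% of all bright probe sets. The exceptions were Dlx1, described with the olfactory bulb genes, and Arih1 and Impact. Arih1, a ubiquitin ligase, gave 678, 2711, 687 and 3156, so animals 2 and 4 were about alike and far above animals 1 and 3. Its other probe set gave 470, 552, 362 and 593, in nearly the same order but over a smaller range. Impact, a regulator of translation, gave 378, 195, 654 and 1063 from an r_at set.

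In 21 probe sets at 300 or more, animal 3 was at least 2-fold above each of the other 3 animals. The corresponding numbers were 0, 0 and 1 for animals 1, 2 and 4. Over all bright probe sets they were 10, 15, 70 and 28 for animals 1 to 4. All 21 were also higher in animal 3 than in any C57 animal. These 21 sets were chosen for this pattern, so their values are a description.

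The sets were led by Actb, Sdc4 and Nr1d1. Actb, the gene of cytoplasmic actin, gave 137, 276, 1744 and 278 with an s_at set, and animal 3 was 6.27-fold above the next animal. A second Actb set, with the suffix f_at, gave 42.6, 87.9, 1154 and 204 and had the largest SD of all named bright genes, 2.05. The 3' Actb control set, by contrast, gave 11396, 12713, 13136 and 10862, with no gap between animal 3 and the others. The same gene therefore appeared high in animal 3 on a pair of probe sets and level on a bright control set.

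Sdc4, a cell surface proteoglycan, gave 344, 552, 2669 and 420. Nr1d1, the clock repressor also called REV-ERB alpha, gave 323, 360, 1665 and 247. No other probe set on the array was named for either gene. Other members of the clock list did not share the gap: Dbp, a clock-controlled transcription factor, gave 1025, 809, 870 and 854, and Nr1d2, the close relative of Nr1d1, gave 1586, 1274, 1299 and 1346. Of 12 bright clock genes, 1 spanned 2-fold, and it was Nr1d1, beside 16.0% of all bright sets.

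Set, Klf13 and Ap2a2 had a second probe set that did not share the gap in animal 3. Set, a histone chaperone, gave 798, 1074, 3711 and 869 with one set but 1198, 890, 872 and 1218 with the other. Klf13, a zinc finger transcription factor, gave 509, 618, 1953 and 474 with one set but 1139, 1082, 1328 and 1063 with the other. Ap2a2, a subunit of the clathrin adaptor, gave 1526, 2161, 5193 and 1966 with one set but 889, 883, 958 and 912 with the other. Otub1, a deubiquitinase, was high in animal 3 on both of its sets, at 668, 825, 2905 and 938 and at 138, 169, 408 and 161.

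Counted over the genes concerned, 8 other bright probe sets existed for 8 of the genes. Animal 3 was the highest in 6 of these 8, beside 27.6% of all bright sets. It was at least 2-fold above all others in 2 (Actb and Otub1), beside 70 of all 9386 bright sets. Arglu1, a splicing cofactor, gave 673, 1264, 3872 and 1349 and had no second set. The others of the 21 with a gene name were Slc39a1 (a zinc transporter), Cplx2 (complexin, of vesicle fusion), Ap2b1, Lrrc8a (a volume-regulated anion channel subunit), Nipsnap2, Spout1, Tcte1, Zscan26, A4galt, Slc23a3, Txnrd3 and Tmem250-ps.

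**Figure D2:**
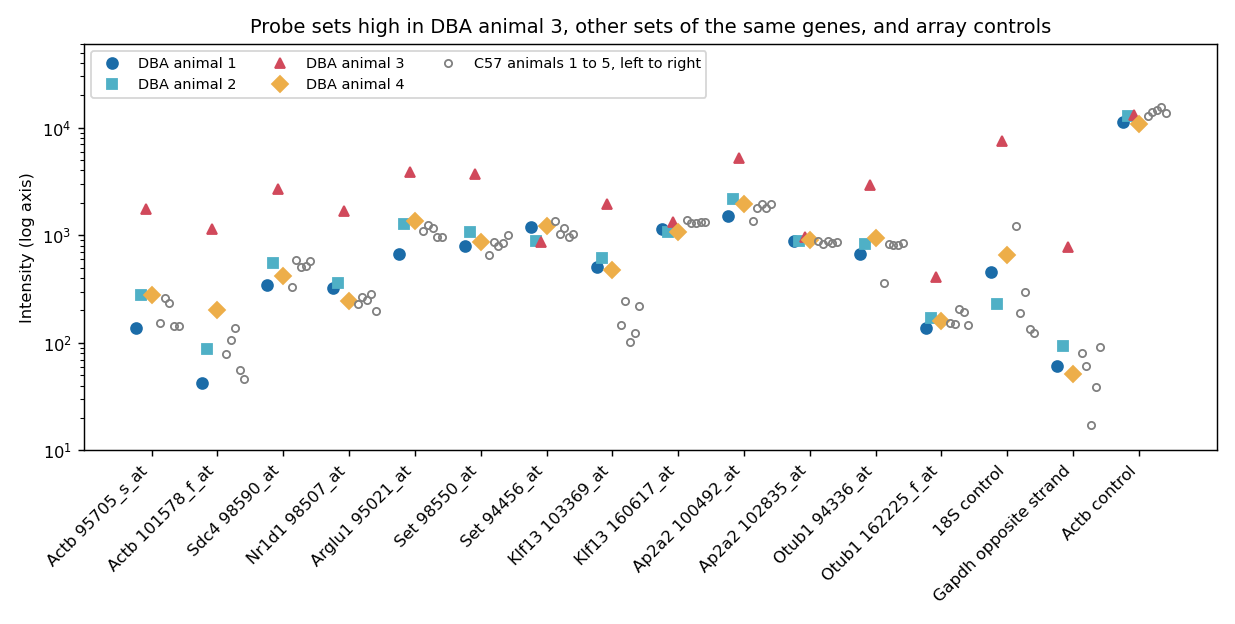
Intensity on a log axis of probe sets high in DBA animal 3, of other sets of the same genes, and of 3 array controls, with 1 filled symbol per DBA animal and open circles for the 5 C57 animals. Animal 3 (triangles) lies above all other animals for Actb, Sdc4, Nr1d1, Arglu1 and the 18S control, and among the others for the second set of Set and for the Actb control; for the second set of Ap2a2 it is the highest, at 958, but close to the others.

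Low outliers were found too. Animal 3 was more than 2-fold below each of the other animals in 117 bright probe sets, animal 1 in 83, animal 4 in 74 and animal 2 in 52. Of these, 7 in animal 3 and 4 in animal 1 had a geometric mean of 300 or more, and 0 in animals 2 and 4. Dusp2, a phosphatase of MAP kinases, gave 292, 323, 41.3 and 352, so animal 3 was low. Hus1, of the DNA damage checkpoint, gave 158, 238, 144 and 20.6, so animal 4 was low, while its other set gave 124, 156, 92.7 and 159. Adam28, a membrane metalloprotease, gave 368, 310, 561 and 28.9 from an r_at set.

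The remaining genes of the 20 with the largest SD over all bright sets were dim. In 13 of the 20 the geometric mean was under 100, and the ranges of all 20 ran from 7.22-fold to 27.1-fold. They included Krt8 (a keratin; 61.4, 20.8, 132 and 9.60), Cd40 (a receptor of antigen-presenting cells; 42.3, 11.1, 125 and 61.3) and Ccr6 (a chemokine receptor; 158, 25.4, 17.0 and 25.8). The rest were Tcta, Mgst2, Noct, Pgs1, H2bc22, Fgfr3, Zap70, Slc2a5, Slc3a1, Fcgbp and Col14a1. S100a5 and Scx also belonged to the 20.

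S100a5 and Scx belonged to a set of genes that were high in animals 1 and 2 and low in animals 3 and 4. S100a5, a calcium-binding protein of olfactory sensory neurons, gave 351, 373, 65.7 and 45.4, and the lower of the first pair was 5.35-fold above the higher of the second. Scx, the transcription factor scleraxis, gave 417, 694, 66.7 and 97.4, a gap of 4.28-fold. Over all bright probe sets, animals 1 and 2 were both above animals 3 and 4 in 14.9%, and by at least 2-fold in 12 sets. In 18 sets, animals 3 and 4 were both at least 2-fold above animals 1 and 2. Only 4 of the 12 had a geometric mean of 100 or more, and these were S100a5, Scx, Dlx1 and Dlx2.

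Dlx1, a homeobox factor of forebrain interneurons that is abundant in granule cells of the olfactory bulb, gave 573, 514, 175 and 205. Its neighbour Dlx2 gave 289, 263, 121 and 127. The third member of the family, Dlx5, gave 218, 185, 135 and 140. All 3 had the same split of the animals, with a ratio of the geometric means of animals 1 and 2 over animals 3 and 4 of 2.86-fold, 2.22-fold and 1.46-fold.

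The olfactory bulb list had 5 genes on the array, all bright, and 4 of the 5 had both of animals 1 and 2 above animals 3 and 4. Omp, the olfactory marker protein of sensory neurons whose axons end in the bulb, gave 126, 162, 62.9 and 39.1. Eomes, a factor of the projection neurons of the bulb, gave 101, 77.5, 38.6 and 12.2. Pbx3, a homeobox factor, gave 986, 1160, 884 and 669. Calb2, the calcium-binding protein calretinin of bulb interneurons and other cells, gave 2402, 2687, 2281 and 2267, and differed by little. The exception was Reln, the secreted protein reelin, with 1903, 1395, 1157 and 1439.

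The score of the list, the median log2 deviation of its genes from the 4-animal mean, was 0.39, 0.35, -0.18 and -0.44 in animals 1 to 4. Over all bright probe sets the same score was -0.01, 0.00, 0.00 and 0.04. With dim members left out by a limit of 100, the score of animal 4 was -0.08, and Omp and Eomes are the members that this limit removes. Th, the rate-limiting enzyme of dopamine synthesis, which interneurons of the bulb make as well as midbrain neurons, gave 520, 624, 359 and 354. Nmb, the peptide neuromedin B, gave 129, 103, 44.9 and 60.8. S100a5 and Scx come from the ranking by SD and Dlx1 from that at 300 or more, while Dlx2, Dlx5 and Nmb were added after their values were seen.

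These genes also varied among the C57 animals. S100a5 gave 384, 222, 97.4, 280 and 227 in C57 animals 1 to 5, and Dlx1 gave 380, 497, 271, 714 and 584. Of the 12 genes in the plot of bulb genes, 7 were lowest in C57 animal 3. The share of all bright sets lowest in that animal is not given here, so this count is no result about the bulb. The amount of olfactory bulb taken with each brain is not recorded in the labels, and its part in these values was not tested.

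**Figure D3:**
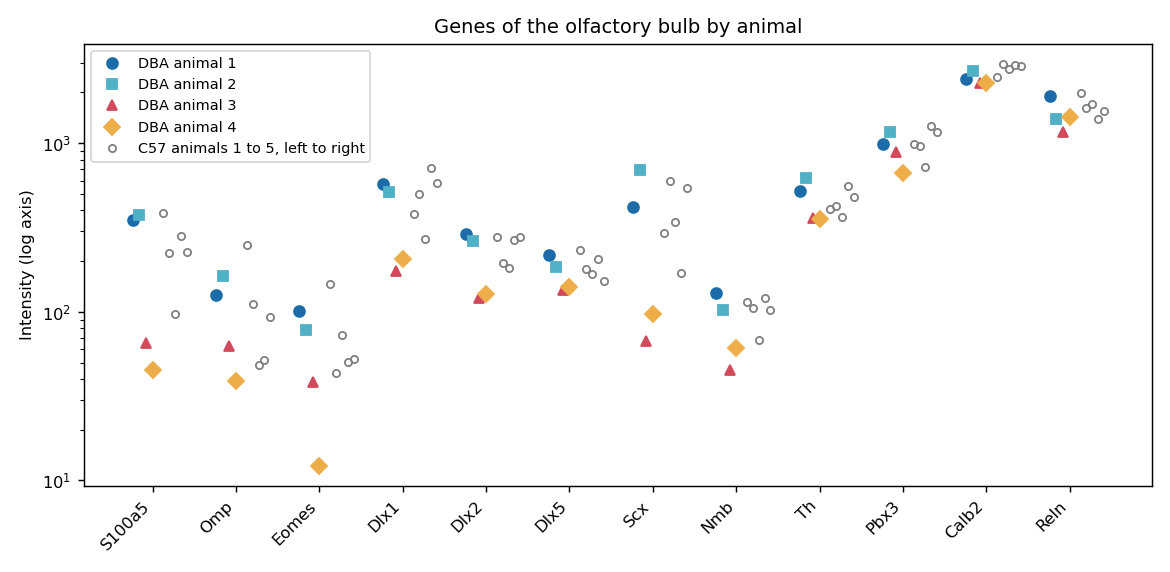
Intensity on a log axis of 12 genes known from the olfactory bulb or sharing its pattern, with 1 filled symbol per DBA animal and open circles for C57 animals 1 to 5. DBA animals 1 and 2 lie above animals 3 and 4 in all but Reln, by 6.63-fold for S100a5 and by 1.12-fold for Calb2 as ratios of geometric means; S100a5, Scx, Dlx1, Dlx2, Dlx5 and Nmb were chosen with their values known, so the count is no result.

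Genes of the cerebellum list leaned low in animal 3. All 11 genes of this list on the array were bright, and animal 3 was the lowest in 7 of them, where it was lowest in 28.6% of all bright probe sets. Animal 4 was the highest in 7, beside 31.2% of all bright sets. The list score was 0.02, 0.13, -0.28 and 0.22 in animals 1 to 4. Car8, a carbonic anhydrase-related protein of Purkinje cells, gave 2992, 3129, 1535 and 3345. Neurod1, a transcription factor of granule cells, gave 1653, 1848, 980 and 1921. Zic1, a zinc finger factor of granule cells, gave 3228, 3580, 2147 and 3311. In all 3 the other animals were close together and animal 3 stood below them.

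Gabra6, the granule cell GABA-A receptor subunit, gave 2887, 3131, 2225 and 3282, and animal 3 was again the lowest. Other members did not follow. Cbln1, a synapse organizer secreted by granule cells, gave 2609, 2657, 2486 and 2294. Pcp2, a protein of Purkinje cells, was highest in animal 3, at 832, 1258, 1951 and 1162 with an r_at set and at 146, 232, 255 and 219 with a plain one. Car8 and Pcp2, both genes of Purkinje cells, thus lay on opposite sides in animal 3. Of the other members, Calb1 (2714, 2453, 2312 and 3029) and Slc1a6 (897, 1035, 803 and 1195) were also lowest in animal 3. Animal 3 was the highest in 2 of the 11 genes. The median SD of the list was 0.33 in DBA and 0.14 in C57, and this difference was not tested.

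Hypothalamic genes leaned towards animal 3. Of the 10 bright genes of the list, 6 were highest in animal 3 (27.6% of all bright sets were), and the list score was -0.06, -0.02, 0.31 and 0.03. Avp, the antidiuretic hormone vasopressin, gave 447, 310, 665 and 312. Oxt, oxytocin, gave 846, 776, 1162 and 706. Hcrt, the wakefulness peptide orexin, gave 283, 426, 594 and 480. Hdc, the histamine-synthesizing enzyme, went the other way, at 93.8, 69.2, 40.9 and 92.6. Slc6a4, the serotonin transporter of raphe neurons, was likewise low in animal 3, at 194, 163, 56.0 and 191 with its brighter set, though its second set gave 41.7, 120, 92.8 and 128.

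Cortical and striatal genes were more even. The cortex and hippocampus list (12 bright genes) had scores from -0.07 to 0.07, and its brightest gene Cck, the peptide cholecystokinin, gave 5813, 5625, 7226 and 5841. In the striatum list (4 bright genes), Penk, the precursor of enkephalin, gave 7587, 8432, 8493 and 7430 with its bright set. Its r_at set gave 569, 427, 1000 and 248, so the spread depended on the probe set. The thalamus and hindbrain list (8 bright genes) spanned about as much as the hypothalamic one, with scores of -0.21, -0.02, 0.14 and 0.15. Glra1, the glycine receptor subunit of hindbrain and spinal neurons, gave 209, 284, 342 and 344.

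**Figure D4:**
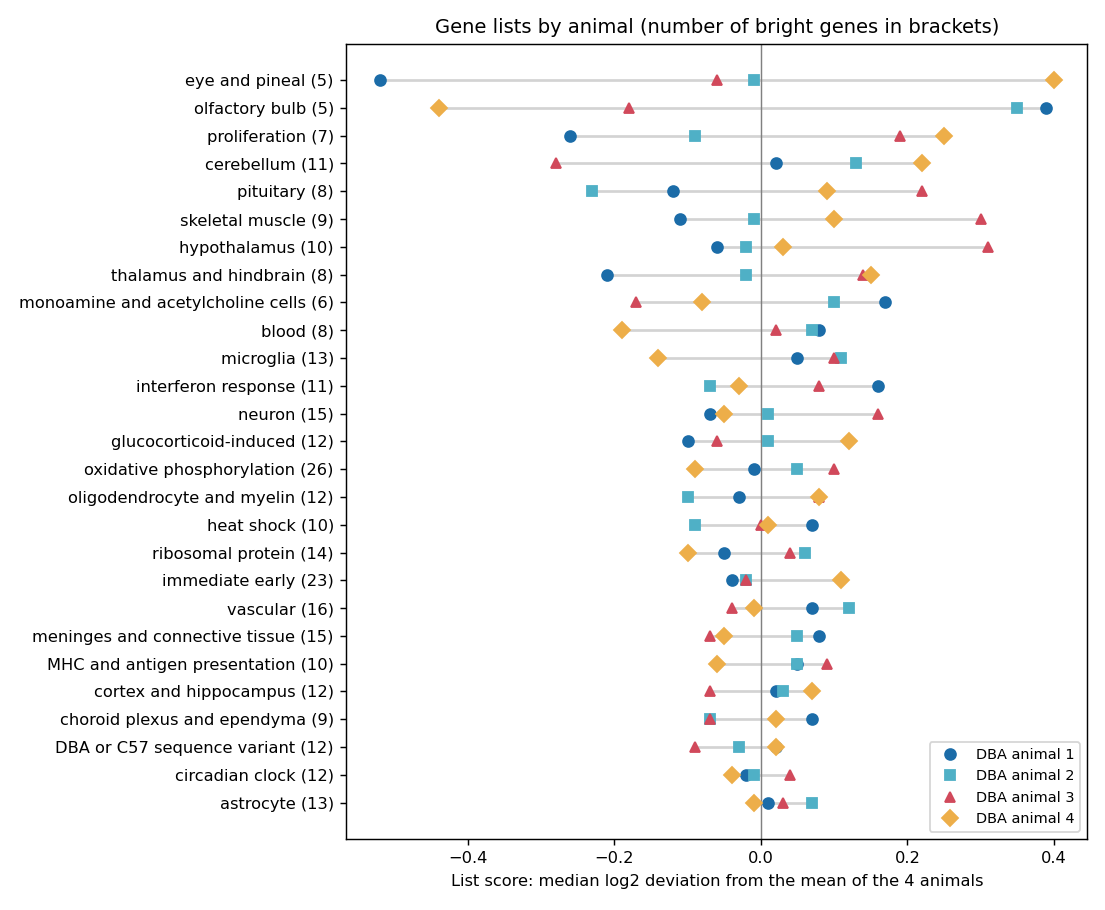
Score of each gene list with at least 5 bright genes in the 4 DBA animals, as the median log2 deviation of its genes from the 4-animal mean (0 is the mean, number of bright genes in brackets). The eye and pineal and the olfactory bulb lists have the widest span, from -0.52 to 0.40 and from -0.44 to 0.39, and the astrocyte and choroid plexus lists lie within 0.07 of 0.

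Immediate early genes were present at measurable levels in these naive animals. Of 25 genes of this list on the array, 23 were bright and none of their brightest probe sets spanned 2-fold. Of all bright sets 16.0% did so, and 13.4% with 1 probe set per gene. Dimmer bright sets of Atf3 and Crem did span 2-fold, at 4.30-fold and 2.45-fold. Their median SD was 0.24. The group was led by animal 4: 11 of the 23 were highest there, where 31.2% of all bright probe sets were. Animals 1, 2 and 3 were the highest in 3, 4 and 5 of the genes, beside 21.5%, 19.7% and 27.6% of all bright sets. With each array centred on its median the count for animal 4 was 7 of 23 beside 20.3%, and with quantile normalization it was 8 beside 27.0%.

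The promoters of 3 of the genes highest in animal 4 are shown because the cAMP response element is a known entry point of neuronal activity to immediate early genes. They are the 150 bases before the RefSeq start site on GRCm38.p6, in the direction of the gene, with matches to TGACGT or to TGCGTCA, on either strand, in capitals. Overlapping matches are merged.
Fos, chr12:85473740-85473889, plus strand: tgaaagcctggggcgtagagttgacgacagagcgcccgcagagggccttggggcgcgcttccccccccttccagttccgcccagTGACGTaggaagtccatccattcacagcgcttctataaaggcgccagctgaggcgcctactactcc
Dusp1, chr17:26508473-26508622, minus strand: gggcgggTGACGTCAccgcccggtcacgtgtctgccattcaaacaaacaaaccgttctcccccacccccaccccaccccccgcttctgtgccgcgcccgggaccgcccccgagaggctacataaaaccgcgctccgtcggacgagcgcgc
Nr4a1, chr15:101266696-101266845, plus strand: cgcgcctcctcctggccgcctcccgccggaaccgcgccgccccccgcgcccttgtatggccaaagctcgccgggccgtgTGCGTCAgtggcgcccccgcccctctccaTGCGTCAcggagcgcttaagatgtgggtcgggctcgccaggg
Of 32 listed genes, 24 had a promoter in the RefSeq table. TGACGT lay in the 250 bases before the start in 13 of their 35 promoters (37.1%), and in 6.47% of all 32851 promoters. TGCGTCA lay in 2 of the 35 (5.71%) and in 1.75% of all. Several of the 35 promoters belong to the same gene and can share a site. By gene, TGACGT lay in 11 of the 24 and TGCGTCA in 2. Matches were not confined to genes highest in animal 4, nor present in all of them. Nr4a2 and Dusp6, also highest in animal 4, had none in the 250 bases. Homer1 and Btg2, highest in animal 2, had matches. A match is a description of the letters and not of a bound site.

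Dusp1, a phosphatase that switches off MAP kinases, gave 1365, 1218, 1127 and 2146. Fos, a subunit of the AP-1 factor and the usual marker of neuronal activity, gave 992, 722, 780 and 1171. Nr4a1, an orphan nuclear receptor, gave 579, 578, 454 and 739. In each of these animal 4 was highest, by less than 2-fold over the lowest.

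Bdnf, the activity-regulated neurotrophin, gave 592, 695, 433 and 819, and Ier2, a short-lived nuclear protein, gave 353, 364, 285 and 458. Nr4a2 gave 218, 240, 251 and 299, and Egr2 gave 202, 170, 245 and 252. Not all members followed animal 4. Egr1, a zinc finger factor, was highest in animal 3, at 989, 1175, 1536 and 1025. Jund, another AP-1 subunit, was also highest in animal 3, at 5576, 7551, 9449 and 6744. Jun, its inducible relative, was lowest in animal 4, at 538, 483, 483 and 418.

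The list score of the immediate early genes was -0.04, -0.02, -0.02 and 0.11. In the C57 animals, Fos ran from 226 to 760 and Nr4a1 from 184 to 774. There 4 of the 23 genes spanned 2-fold, beside 1959 of all 9386 bright sets. A range over 5 animals is wider by construction than a range over 4. The range of the list score was 0.15 in DBA and 0.55 in C57. These differences were not tested. Of 12 bright genes induced by glucocorticoids, the adrenal stress hormones, 5 were highest in animal 4, which is near the 31.2% of all bright sets. Sgk1, a kinase of this group, gave 1378, 1223, 1044 and 1638, while Fkbp5, a chaperone of the receptor, gave 554, 566, 512 and 577.

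**Figure D5:**
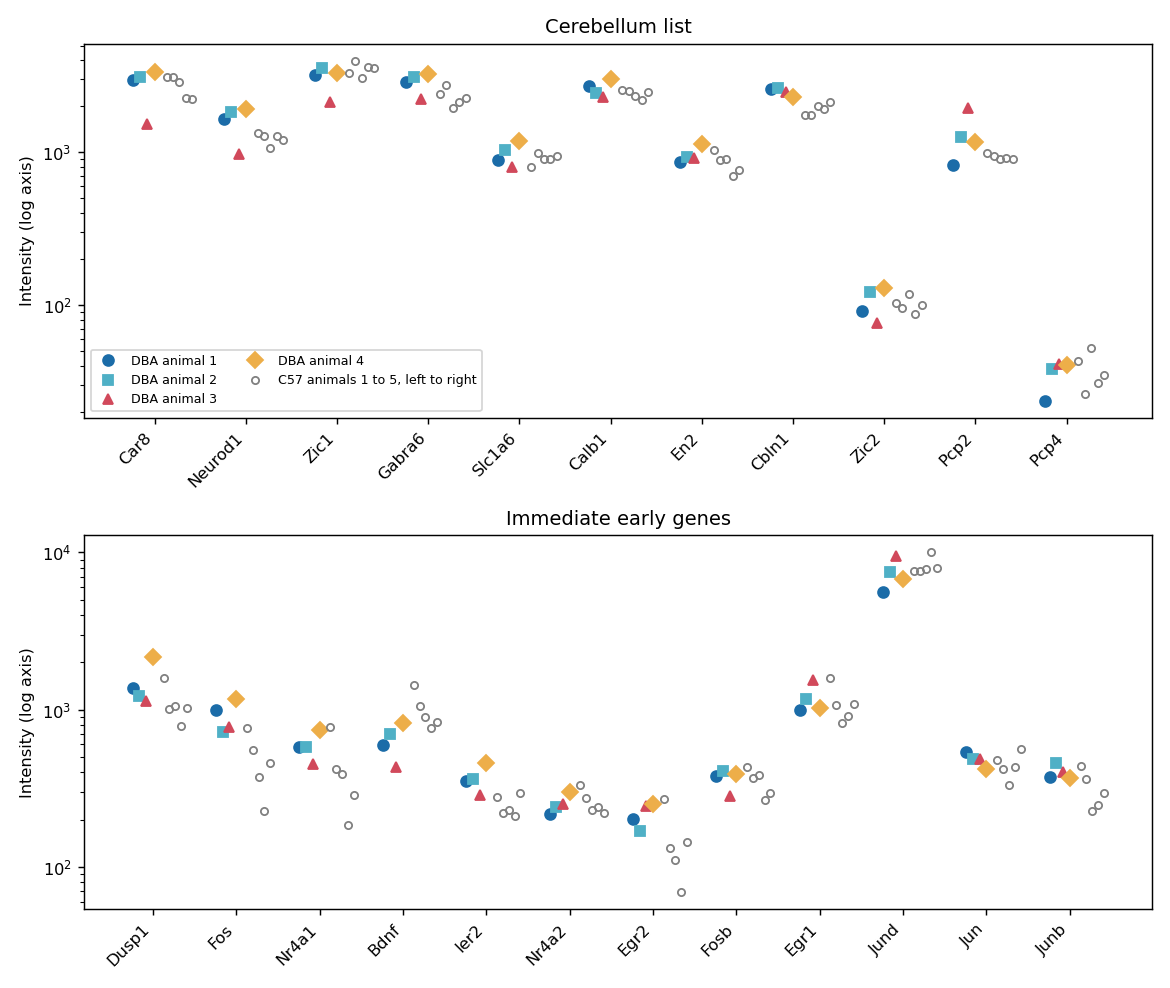
Intensity on a log axis of the 11 cerebellum genes (top) and of 12 immediate early genes (bottom), with 1 filled symbol per DBA animal and open circles for C57 animals 1 to 5. Animal 3 is below the other DBA animals for Car8, Neurod1, Zic1 and Gabra6 and above them for Pcp2, and animal 4 is the highest for Dusp1, Fos, Nr4a1, Bdnf and Ier2.

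Myelin genes varied about as little in DBA brain as other genes of their brightness. Of 14 genes of the list on the array 12 were bright, and the median SD was 0.17. None of their brightest sets spanned 2-fold, beside 16.0% of all bright sets. Their geometric means ran from 313 to 9201, and 5.08% of all sets between 300 and 1000 spanned 2-fold, with fewer above. Dimmer bright sets of Sox10 and Cldn11 did span 2-fold, at 2.20-fold and 3.31-fold. Mbp, myelin basic protein, gave 8180, 9595, 10606 and 8612. Mobp, another structural protein of myelin, gave 7612, 6508, 8592 and 6385. Mag, a glycoprotein at the contact between myelin and axon, gave 1390, 1343, 1364 and 1637. The order of the animals differed between these genes.

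The score of the list was -0.03, -0.10, 0.08 and 0.08, and animal 2 was the highest in 0 of the 12 genes, beside 19.7% of all bright sets. Mog, on the outer face of myelin, gave 779, 584, 716 and 660, and Mal, a lipid raft protein, gave 1906, 1768, 2118 and 2211. Cldn11, the tight junction protein of myelin, gave 1220, 1041, 1287 and 1417. The other bright members were Car2, Qdpr, Gsn, Ugt8a, Sox10 and Cryab. In C57 the same genes had a median SD of 0.29, and Mal ran from 1042 to 3387. The 2 members that were not bright were Cnp, a myelin enzyme whose only set here read 3.70 to 15.9, and Gpr37.

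Genes of tissues next to the brain were examined for carry-over. Of the pituitary list, 8 of 12 genes on the array were bright and none reached a geometric mean above 356. Prl, prolactin, gave 69.0, 25.8, 19.4 and 133. Gh, growth hormone, gave 160, 140, 240 and 232. Pitx1, a transcription factor of the gland, gave 140, 43.2, 128 and 44.7. These did not rise and fall together: Prl was highest in animal 4, Gh in animal 3 and Pitx1 in animal 1. Lhb and Ghrhr, the luteinizing hormone subunit and the receptor for growth hormone-releasing hormone, were highest in animal 4, at 306, 306, 387 and 442 and at 104, 104, 141 and 145. Pomc, Cga and Trhr were the other bright members. Fshb, Tshb, Hesx1 and Gnrhr were not bright. The summed intensity of the 12 genes was 1111, 1039, 1340 and 1341.

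Several blood transcripts were low in animal 4. Hba-a1, alpha globin, gave 7345, 6656, 7467 and 4187, and Hbb-b2, a beta globin, gave 2460, 1476, 1778 and 1537. Animal 4 was the highest in 0 of the 8 bright genes of this list and the lowest in 4, beside 31.2% and 25.4% of all bright sets, and these counts rest on few genes. Alas2, the heme synthesis enzyme of red cell precursors, gave 177, 203, 159 and 146, and Bpgm, a red cell enzyme, gave 1428, 1227, 1218 and 1390. S100a8, Camp, Ltf and Slc4a1 were the other bright members, with geometric means of 120 or less. Car1, Epb42, Ngp and S100a9 were not bright. The summed intensity of the 12 genes was 11700, 9917, 10964 and 7545, and Hba-a1 gave the largest part of it in each animal.

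The choroid plexus list had scores near 0 in all 4 animals. The choroid plexus makes cerebrospinal fluid, and its transthyretin transcript is so abundant that a little tissue changes a brain extract. Ttr gave 3148, 2970, 4143 and 3638. Igf2 gave 4560, 3739, 3886 and 4131, and Folr1, a folate receptor, gave 256, 218, 266 and 235. Kl, the gene of klotho, gave 284, 255, 200 and 343. None of the 9 bright genes of the list spanned 2-fold on its brightest set, beside 16.0% of all bright sets. The median SD was 0.29, beside 0.23 for all bright sets, and the scores lay between -0.07 and 0.07. The other bright members were Igfbp2, Foxj1, Cab39l, Ace and Slc4a5, and Aqp1, Cldn2, F5 and Spint2 were not bright.

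The eye and pineal list had the widest span of scores, -0.52, -0.01, -0.06 and 0.40, from 5 bright genes of 9. Aanat, the melatonin-synthesizing enzyme of the pineal gland, gave 188, 237, 258 and 453. Crx, a factor shared by pineal and retina, gave 93.1, 134, 25.1 and 103, in another order. All but Crybb2, a lens crystallin, and Aanat had geometric means under 100. The skeletal muscle list (9 bright genes of 14) had a median SD of 0.57 and 5 genes that spanned 2-fold, beside 16.0% of all bright sets. Its geometric means lay between 80.0 and 282, and Ckm, muscle creatine kinase, gave 73.1, 94.6, 186 and 112. In the liver and plasma list 3 of 8 genes were bright, and Alb, serum albumin, read 26.2, 12.7, 26.8 and 74.5, under the limit on average.

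The cell classes of brain itself differed little between animals. Neuron genes had a median SD of 0.13 and scores of -0.07, 0.01, 0.16 and -0.05, with 8 of 15 highest in animal 3, beside 27.6% of all bright sets. Astrocyte genes had a median SD of 0.16 and none spanned 2-fold, beside 16.0% of all bright sets and 5.08% of those between 300 and 1000. Gfap, the astrocyte filament protein, gave 785, 619, 622 and 744 with its brighter set, and Fabp7, a fatty acid carrier of astrocytes and radial glia, gave 2753, 2952, 1947 and 2306. Vascular genes had a median SD of 0.17, and Cldn5, the tight junction protein of the blood-brain barrier, gave 1258, 1186, 832 and 853, so that animals 1 and 2 were above animals 3 and 4.

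Microglial genes leaned away from animal 4, which was the highest in 0 of 13 and the lowest in 6, beside 31.2% and 25.4% of all bright sets. Aif1, the microglial marker IBA1, gave 119, 99.9, 90.8 and 49.0. Tyrobp, an adaptor of microglial receptors, gave 359, 252, 331 and 202, and Laptm5, a lysosomal protein of immune cells, gave 539, 668, 659 and 385. Csf1r, the receptor microglia need to survive, did not share this, at 992, 860, 1026 and 952. Alpha globin, the largest part of the summed blood genes, was low in the same animal. The beta globin Hbb-b2 was not lowest there, at 1476 in animal 2 and 1537 in animal 4. The part of residual blood in these values was not tested.

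Genes of energy metabolism and translation were bright, and many had the order of animals seen over all probe sets above 3000. Of 26 bright genes of oxidative phosphorylation, 12 were highest in animal 3 and 13 lowest in animal 4, beside 27.6% and 25.4% of all bright sets. Their geometric means ran from 40.7 to 11405. None spanned 2-fold on its brightest set, beside 16.0% of all bright sets and 0.533% of those over 3000. A dimmer bright set of Atp5l did, at 2.35-fold. Cox6a1, a subunit of cytochrome oxidase, gave 11108, 11958, 13209 and 9644. Of 14 bright ribosomal protein genes, 9 were lowest in animal 4, beside the same 25.4%, and none spanned 2-fold on its brightest set. A dimmer bright set of Rpl19 did, at 2.02-fold. Heat shock genes, which rise with stress of the tissue, had a median SD of 0.16. Hspa1a, the inducible chaperone, gave 402, 286, 336 and 433, and Hsp90aa1 gave 13050, 12927, 16211 and 10479.

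In the immune lists the share of genes that spanned 2-fold was not below that of all bright sets, though the lists are short. Of 11 bright interferon-response genes 3 spanned 2-fold (Gbp3, Ifit2 and Usp18), beside 16.0% of all bright sets, and animal 1 was the highest in 6, beside 21.5%. Gbp3, a guanylate-binding protein, gave 126, 121, 82.2 and 210. Of 10 bright genes of antigen presentation 2 spanned 2-fold on their brightest set, which is near the share of all bright sets. These were H2-Ab1 and H2-Eb1, class II genes of the same locus. They gave 62.5, 82.7, 58.4 and 28.9 and 112, 164, 243 and 145, in different orders. Dimmer bright sets of Tap1 and Tapbp also spanned 2-fold, at 2.11-fold and 2.98-fold. Of 7 bright genes of the cell cycle list, Pcna and the tubulin Tuba1c, whose f_at set can also detect related transcripts, were the only ones above 300. Ccna2, cyclin A2, gave 138, 172, 170 and 274.

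Genes that are known to carry sequence variants in DBA or C57 mice varied about as much as other genes across the DBA animals. Their median SD was 0.24, beside 0.23 for all bright sets. Of 12 bright genes none spanned 2-fold on its brightest set, beside 16.0% of all bright sets. Dimmer bright sets of Kcnj9 and Mpdz did so, at 2.92-fold and 2.05-fold. The list scores lay between -0.09 and 0.02. Gnb1, a G protein beta subunit, gave 6591, 8576, 9195 and 7020. Glo1, the glyoxalase that detoxifies methylglyoxal, gave 3995, 4557, 3344 and 4484, and Alad, an enzyme of heme synthesis, gave 1880, 2076, 1899 and 1835.

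The sex-linked genes had the same pattern in all 4 DBA animals. Xist, transcribed from the inactive X chromosome, read 21.2, 24.8, 24.2 and 16.4, under the brightness limit, and 19.6 to 36.0 in the C57 males. Eif2s3y, a Y-linked gene read by an f_at set that can also detect related transcripts, gave 296, 336, 338 and 331. Uty, another Y-linked gene, gave 62.7, 71.7, 71.3 and 102. Kdm5d and Sry were not bright. In none of these did 1 animal stand apart by 2-fold from all the others on a bright set.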

How the data were processed

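Whole brain RNA of 4 DBA and 5 C57 mice was measured on 1 array per animal. The deposited values are intensities on a linear scale, 1 per probe set. How probes were summarised and scaled is not given in the sources. Trimmed by 2% at each end, the deposited intensities averaged 500.3 on every array, so the arrays had been scaled to 1 target. The number of arrays limits the precision, and no detection calls were used.

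Of 12488 probe sets, 66 are controls. A platform annotation gave 1 symbol to 10833 others, several to 396 and none to 1193, and 10817 were updated through gene identifiers with RefSeq (GRCm38.p6). A floor of 1.70, the 1st percentile of all positive intensities, replaced the 0.978% of values below it before log2 was taken. A probe set was called bright when the geometric mean of the 4 DBA arrays was over 35. SDs are of log2 values with n = 4. Lists (30) use the brightest bright probe set per gene. Named genes are the 20 with the largest SD, the 15 with the largest SD and the 10 with the smallest at 300 or more, the 15 brightest, every measured member of the pituitary, choroid plexus, blood, immediate early, myelin and sex-linked lists, and up to 4 members with the largest SD from each other list. Genes were also named outside this rule, as examples chosen after their values were seen. The members and lists were chosen with earlier results of these data known.

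The strains' spread was compared by an exact 2-sided permutation test, and Dixon's limit was used to single out animals. Nothing in the labels says whether the animals came from separate litters. Correlations over 4 animals were not computed. Alternatives were other scaling, a floor of 20, other brightness limits, 1 probe set per gene, and leaving out each animal. Scripts were tested on simulated data. Python 3.11.15, numpy 2.4.6, pandas 2.3.3, scipy 1.17.1 and matplotlib 3.10.9 were used.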

Additional observations from a re-analysis of the deposited data

Results flagged for a closer look

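In 20 of 225 named probe sets, 1 DBA animal lay so far from the other 3 that its gap to the nearest was beyond Dixon's 95% limit for 4 values, taken as a share of the whole range. Chance flags about 1 in 20 such groups, but many of these sets were named for a large SD or for a gap in animal 3, so the count cannot be read against that share. Animal 3 was the outlying animal most often. It was low for Car8 (1535), the endothelial genes Abcb1a (173) and Kdr (73.3), the synaptic scaffold Homer1 (94.0), Dusp2 (41.3) and Slc6a4 (56.0 with its brighter set). It was high for Tmem250-ps (2717), S100a8 (45.7) and the heme-binding protein Hebp1 (554).

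Animal 1 was low for Eif2s3y (296), Pcp4 (23.8), Qdpr (4823) and the dopamine receptor Drd2 (209), and high for Ehmt2 (1781) and the mitochondrial transhydrogenase Nnt (574). Animal 2 was low for the activin subunit Inhba (74.3) and for Aldh1a2 (44.4), a retinoic acid enzyme of the meninges. Animal 4 was high for Mbp with the dimmer set (714) and for the apolipoprotein Apoa2 (57.8), and low for the interferon-induced Isg15 (104). For Ehmt2 the whole range was 1.03-fold. The score of the immediate early list was set apart in animal 4 (0.11), and it was 1 of 30 lists for which this held. The cause of these gaps was not tested.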

How the results depend on the processing

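The median SD of 0.23 was 0.21 with a brightness limit of 100 and 0.29 with no limit, and ran from 0.21 to 0.24 when 1 animal was left out. The count of 1506 probe sets spanning 2-fold was 586 (7.84%) with the limit of 100, 3857 (31.0%) with no limit and 920 (13.4%) with 1 probe set per gene, and ran from 853 to 1235 when 1 animal was left out; fewer animals give smaller ranges by construction. The difference in spread between the strains, 0.004, was -0.009 with median centring (exact permutation p = 0.667). Leaving out 1 animal gave -0.006 to 0.020 for DBA and -0.007 to 0.017 for C57, with exact p from 0.268 to 0.943, so its sign changed with the animals included. Nothing in the labels ties same-numbered animals of the strains. Their deviations correlated at -0.10, -0.01, -0.01 and -0.16, which cannot show whether the numbers mark a shared block. With the number as a replicate block the difference was 0.002 (exact paired sign-flip test, p = 0.750, the smallest possible being 0.125). The immediate early score of animal 4 was 0.03 with median centring. Of 270 list scores computed under alternatives, 247 changed by less than the SD of that list's scores over the 4 animals, 19 moved by more and 4 reversed. By this rule a list with a wide span can lose much of its score and still not count as moved. The olfactory bulb score of animal 4 did so with the limit of 100. The 4 reversed were liver and plasma in animal 3 to -0.05 and sex-linked in animal 4 to -0.38 with no limit, sex-linked in animal 4 to -0.02 without animal 1, and ribosomal protein in animal 4 to 0.01 with quantile normalization. The cause of these changes was not tested. Signal near background limits what the dim probe sets can show.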
